A study of Mus musculus with 12 samples.

Results

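Cadherins and protocadherins were described here as all protein-coding genes of the deposited count table whose symbol starts with Cdh and a digit or with Pcdh, with 1 row per Ensembl gene. There were 93 of them among 46517 genes. By branch they were 5 type I and 13 type II classical cadherins, 6 other cadherins, 9 delta protocadherins, 2 other protocadherins outside the gene clusters, and the clustered protocadherins, of which 15 were alpha, 22 beta and 21 gamma genes. A further row that matched the symbol rule was not protein coding and was left out.

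Cadherins are calcium-dependent adhesion receptors that bind like molecules on neighbouring cells. Classical cadherins hold on to the actin skeleton through catenins, and in the brain different members mark different groups of neurons and glia. Protocadherins bind more weakly and recruit other partners, among them the actin-branching WAVE complex. In the alpha and gamma clusters each gene has its own first exon and promoter, spliced to constant exons that the whole cluster shares, and single neurons choose a few of these promoters, while the beta genes are single exons.

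RNA-seq libraries of the mouse were of 3 kinds, with 4 of tumor-derived astrocytes, 4 of tumor granule neuron progenitors (GNPs) and 4 of normal astrocytes. Medulloblastoma is a tumor of the cerebellum that can grow from GNPs, and the study sets the tumor-derived astrocytes against both other kinds. Per the labels, all libraries came from cells lifted by laser capture microdissection, in which an infrared laser picks cells from a fixed frozen section, and the extraction text, identical for all, speaks of brains with tumor. Strain was given as C57BL/6 for both astrocyte kinds and as C57BL/7, C57BL/8, C57BL/9 and C57BL/10 for GNP libraries 1 to 4, a label that climbs by 1 with each library. A deposited sample sheet calls the normal libraries adult astrocytes of the cerebellum and its GNP names carry a suffix it spells out once as cultured, so it remains unclear if these GNPs were cultured. The sources used here do not give genotype, tumor model, age or the animal behind each library. If captured samples come from the same animals, the p-values below are too small, and part of the spread between libraries may be technical.

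Total counts were 8679971 to 12626596 in tumor-derived libraries, 8154401 to 8673023 in GNP libraries and 8838441 to 11287457 in normal libraries. Among GNPs, libraries 1, 2 and 4 were unusually close. Over genes with 10 to 49 counts in a pair, the chi-square per degree of freedom was 1.21 to 1.59 for these 3 pairs and 4.17 to 14.25 for 15 remaining pairs of 1 group. They were therefore counted as 1 sample, so that every GNP mean ± SD has n = 2, namely the mean of this trio and library 3. The labelled cell types were compared with markers as summed CPM, counts scaled to TMM-normalised library sizes. Astrocyte markers summed to 1004 to 2067 CPM in tumor-derived, 476 to 703 in GNP and 5973 to 12451 in normal libraries. Aldoc alone was at 477 ± 194 CPM in tumor-derived and 6756 ± 3059 in normal astrocytes (SD, n = 4 each). Of 9 tested astrocyte markers 6 were lower in tumor-derived than in normal astrocytes and 1, Gfap, was higher (91.9 ± 38.3 and 11.2 ± 19.9 CPM). Aldh1l1 was not called (273 ± 54 and 237 ± 152 CPM; SD, n = 4 each; edgeR adjusted p of 0.0481 for Gfap and 0.704 for Aldh1l1). Granule progenitor and tumor cell markers summed to 1810 to 2940, 2519 to 2566 and 115 to 216 CPM in the same order of groups, with Atoh1 at 0 in every normal library. The normal libraries also held Purkinje cell markers at 4880 to 18458 CPM, against 1143 to 2337 in tumor-derived and 185 to 227 in GNP libraries, where Pcp2, Car8 and Ppp1r17 were at 0. Of the tumor-derived sum, Pvalb alone made up 1186 ± 366 CPM (SD, n = 4). Mature granule neuron markers were at 260 to 607, 345 to 379 and 911 to 3266 CPM. Microglia and macrophage markers were at 685 to 938 CPM in tumor-derived, 2.52 to 7.46 in GNP and 177 to 525 in normal libraries. In bulk libraries such as these, fewer cells of a type and less RNA per cell cannot be told apart.

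As a family, the 93 genes summed to 381 to 596 CPM in tumor-derived, 236 to 278 in GNP and 425 to 596 in normal libraries. Only 17 of the 93 had a count in all 12 libraries, and 9 had none anywhere. A filter on low counts left 43 members for testing, 23 of the 35 outside the gene clusters and 20 of the 58 inside them. A member that passed the filter through 1 group alone had to differ, so counts over these 43 describe them and nothing more. The other 50 were not tested. A library with no count of a gene may still hold up to 3 counts' worth, which is on average 0.339 CPM in tumor-derived, 0.321 in GNP and 0.288 in normal libraries. The reads carry no molecular identifiers, so this limit covers counting error only.

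Against normal astrocytes, tumor-derived astrocytes carried more R-cadherin (Cdh4) and less M-cadherin (Cdh15) and Pcdh9. In these genes the tumor-derived and normal libraries did not overlap, which also held for other members, among them Pcdh15, Pcdhac2 and Cdh1, which was not called. The share of all genes tested without overlap was not counted. Low-level members were also called, with Pcdh15, Pcdh18 and Pcdha2 higher and Cdh12, Pcdhac1, Pcdhac2 and Pcdhga6 lower. Thus 4 of the 43 tested members were called higher and 6 lower (edgeR, adjusted p under 0.05), where 32.3% of all 16374 genes tested were called, 17.9% higher and 14.4% lower. Each low-level call but that of Pcdha2 was lost in at least 1 alternative setting. Pcdha2 passed the filter through the tumor-derived libraries alone, and Pcdh15 through them and GNP library 3. Cdh12, Pcdhac1 and Pcdhga6 passed through the normal libraries alone. These members were kept through a group where they were high, so their calls describe them and give no support. Counts of single alpha and gamma genes are also uncertain, since their 3′ ends are shared (below). The median log2 fold change of the 43 was -0.17, beside 0.11 over all genes tested. By branch, 1 type I cadherin was higher and 1 lower of 4 tested, 0 and 1 of 6 type II, 1 and 0 of 3 other cadherins, 1 and 1 of 8 delta protocadherins, 1 and 2 of 3 alpha, 0 and 0 of 12 beta and 0 and 1 of 5 gamma genes. None of the 12 beta genes passed an unadjusted p under 0.05 with edgeR or was called by DESeq2, and neither did any of the 2 other non-clustered protocadherins. For the further zeros, no type II cadherin was higher and no other cadherin lower by these measures, and 1 gamma gene was higher at an unadjusted p under 0.05 and 0 with DESeq2.

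**Figure D1:**
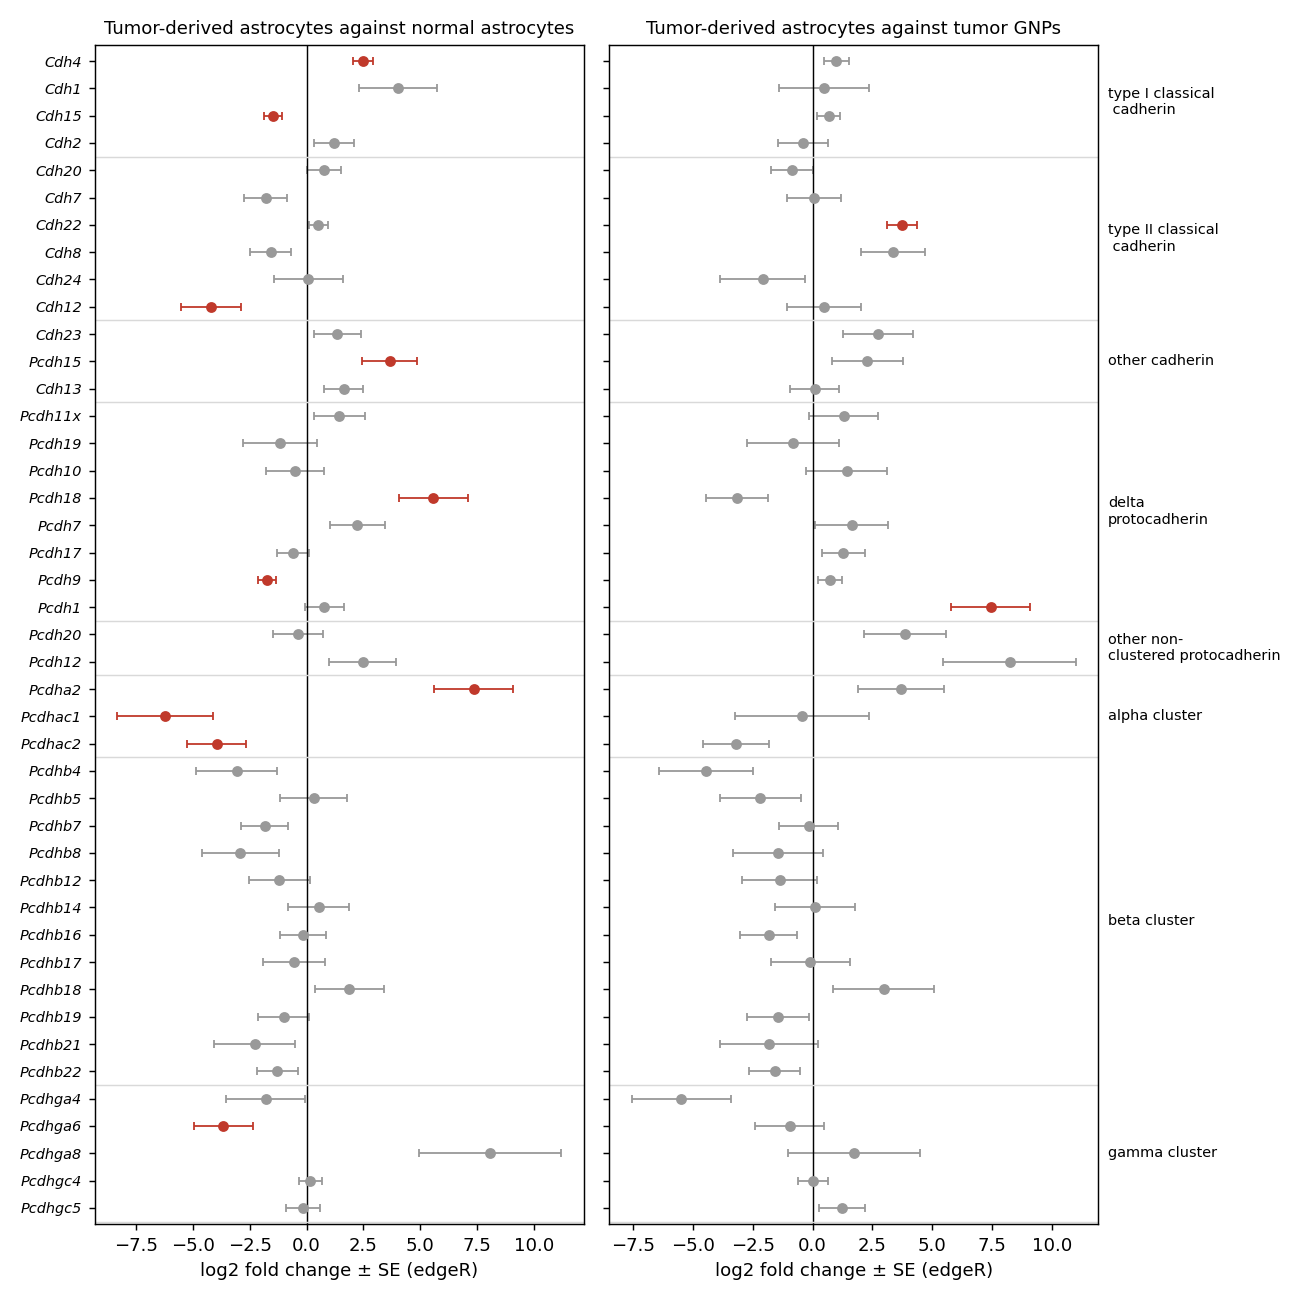
Log2 fold change ± SE (edgeR) of the 43 tested members in tumor-derived astrocytes against normal astrocytes (left) and against tumor GNPs (right), ordered by branch from top to bottom. Red points are the 10 members called on the left and the 2 called on the right, and grey points are not called, which include all 12 beta genes in both panels.

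Among type I classical cadherins, which carry most catenin-dependent adhesion, Cdh4 and Cdh15 changed in opposite directions. Cdh4 (R-cadherin, chromosome 2, known from retina and brain) stood at 91.7, 42.1, 50.2 and 34.1 CPM in tumor-derived libraries, at 21.4, 18.8, 32.2 and 21.2 in GNP libraries and at 8.55, 10.8, 7.46 and 12.4 in normal libraries. The 3 groups did not overlap, and tumor-derived replicate 1 was the highest library. The log2 fold change of tumor-derived over normal astrocytes was 2.48 ± 0.43 (SE, edgeR adjusted p = 0.00152), and it lay between 2.09 and 2.67 with an adjusted p of at most 0.00587 in all 20 alternatives. Cdh15 (M-cadherin, chromosome 8, a cadherin of muscle that is also made by cerebellar granule cells) had 61.4, 45.7, 47.2 and 60.1 CPM in tumor-derived, 20.1, 13.5, 50.1 and 13.4 in GNP and 167, 131, 218 and 87 in normal libraries. All 4 tumor-derived values lay below all 4 normal ones, and in GNPs library 3 stood above the trio. The log2 fold change was -1.49 ± 0.39 (SE, edgeR adjusted p = 0.0129), past the threshold in all 20 alternatives. All 8 Purkinje cell markers and 6 of 7 mature granule neuron markers were also lower in tumor-derived astrocytes (sums above), and their part in this result was not tested.

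The other type I members were scarce. Cdh2 (N-cadherin, the main cadherin of neural tissue) had 2.54, 1.68, 1.21 and 1.52 CPM in tumor-derived, 1.54, 2.0, 2.59 and 1.97 in GNP and 0.27, 0.681, 0.509 and 1.52 in normal libraries. It was seen in all 12 libraries with 3 to 25 counts in each, and its log2 fold change of 1.21 ± 0.90 (SE, edgeR adjusted p = 0.327) was not called. Cdh1 (E-cadherin, the cadherin of epithelia) had 3.3, 1.68, 3.07 and 2.0 CPM in tumor-derived libraries, 3.62 in GNP library 3 and 0.571 in normal replicate 4, and 0 in the other 3 GNP and the other 3 normal libraries. Every tumor-derived library was above every normal one, yet the log2 fold change of 4.03 ± 1.73 (SE) missed the threshold (edgeR adjusted p = 0.0937), and it was 7.85 (adjusted p = 0.0294) without normal replicate 4. It also passed in a fit of these 2 groups alone (adjusted p = 0.0312), within a range of 0.0294 to 0.163 over its 19 alternatives. Cdh3 (P-cadherin) had 3 counts in normal replicate 4 and none elsewhere.

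Type II classical cadherins, which mark neuron groups and vessels, held both well-measured and nearly silent genes. Cdh22 (chromosome 2, a cadherin of pituitary and brain) had 161, 87.5, 101 and 105 CPM in tumor-derived, 11.8, 8.74, 6.31 and 8.67 in GNP and 101, 126, 30.6 and 59.9 in normal libraries. Tumor-derived and normal libraries overlapped, at a log2 fold change of 0.52 ± 0.42 (SE, edgeR adjusted p = 0.366), while every GNP library was far below both. Cdh8 (chromosome 8, a cadherin of cortical and other neurons) had 7.61, 1.68, 5.38 and 7.13 CPM in tumor-derived, 0.11, 0, 1.04 and 0.11 in GNP and 16, 33.5, 2.04 and 13.4 in normal libraries. Its tumor-derived values overlapped the normal ones through normal replicate 3, and the log2 fold change of -1.57 ± 0.90 (SE) was not called (edgeR adjusted p = 0.202). Cdh20 was even within tumor-derived astrocytes, with 4.19, 4.32, 3.84 and 4.37 CPM, against 11.1, 6.84, 5.49 and 8.88 in GNP and 0.9, 3.97, 3.65 and 1.24 in normal libraries. For this gene tumor-derived over normal gave 0.78 ± 0.75 (SE, edgeR adjusted p = 0.456).

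Cdh12 (chromosome 15, a brain cadherin) was near the limit of detection in tumor-derived libraries, with 4, 1, 1 and 2 counts, and had 30, 1, 111 and 58 counts in normal libraries. In CPM these were 0.507, 0.12, 0.11 and 0.19 against 2.7, 0.113, 9.41 and 5.52, so that normal replicate 2 lay among the tumor-derived values. The log2 fold change was -4.21 ± 1.33 (SE, edgeR adjusted p = 0.0299). Leaving out tumor-derived replicate 2, 3 or 4 gave an adjusted p of 0.0882, 0.088 or 0.0819, and leaving out normal replicate 3 gave 0.0628, so the call was lost each time. Cdh5 (VE-cadherin, the junction protein of blood vessel walls) had only 1, 0, 2 and 0 counts in tumor-derived, 0 in all GNP and 0, 0, 1 and 0 in normal libraries. Other endothelial markers summed to 189 to 213 CPM in tumor-derived, 3.21 to 7.26 in GNP and 95.1 to 218 in normal libraries, with Cldn5 and Tek at 0 in GNPs. Cdh6 had 2, 9, 2 and 0 counts in tumor-derived libraries and 0 in all 8 others. Cdh10 was at 3.73 CPM in normal replicate 3 and at 0 to 0.19 in the other normal libraries, with 1 count each in tumor-derived replicates 3 and 4 and none in GNPs. Cdh11, of mesenchymal cells, had 1, 1, 4 and 1 counts in tumor-derived, 1, 0, 10 and 3 in GNP and 0, 1, 1 and 3 in normal libraries.

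Of the cadherins with unusual structure, Cdh13 was even in the tumor groups and uneven in normal astrocytes. Cdh13 (T-cadherin, chromosome 8, held in the membrane by a lipid anchor with no cytoplasmic tail) had 61.9, 86.5, 78.5 and 69.0 CPM in tumor-derived, 63.7, 67.3, 67.8 and 64.6 in GNP and 76.8, 12.5, 4.92 and 1.62 in normal libraries. Normal replicate 1 alone overlapped the tumor-derived values. With it, the log2 fold change of tumor-derived over normal was 1.63 ± 0.86 (SE) and not called (edgeR adjusted p = 0.168). Without it, the value was 3.55 (adjusted p = 0.00241), so that this single library decided the call. Across its 19 alternatives the adjusted p ran from 0.00241 to 0.307. Between tumor-derived astrocytes and GNPs the log2 fold change was 0.09 ± 1.03 (SE, edgeR adjusted p = 0.968).

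Pcdh15 (chromosome 10), which forms the tip links of inner ear hair cells together with Cdh23 and is also made by oligodendrocyte precursors, had 7.87, 4.08, 5.38 and 4.28 CPM in tumor-derived, 0.219, 0, 2.07 and 0.219 in GNP and 0.81, 0, 0.17 and 0.666 in normal libraries. Every tumor-derived library lay above every library of the other groups. The log2 fold change over normal astrocytes was 3.67 ± 1.21 (SE, edgeR adjusted p = 0.0361). The call was lost without any one of the 4 tumor-derived replicates and without normal replicate 3, at adjusted p of 0.0624 to 0.0763 and log2 fold changes of 3.42 to 3.76. Among oligodendrocyte lineage markers, Cspg4, a proteoglycan of these precursors, was at 43.0 ± 11.2 CPM in tumor-derived and 2.25 ± 1.41 in normal astrocytes (SD, n = 4 each; edgeR adjusted p = 0.00053). Pdgfra, their growth factor receptor, was at 5.27 ± 0.883 and 0.404 ± 0.809 CPM (SD, n = 4 each; edgeR adjusted p = 0.0603). The whole list of 9 markers summed to 224 to 321 CPM in tumor-derived, 52.1 to 65 in GNP and 401 to 842 in normal libraries, and its part in the Pcdh15 result was not tested. Cdh23 had 6.98, 2.28, 2.85 and 2.95 CPM in tumor-derived, 0.439, 0.842, 0.207 and 1.1 in GNP and 3.24, 1.81, 0.678 and 0.0952 in normal libraries. It was not called in either comparison of tumor-derived astrocytes.

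**Figure D2:**
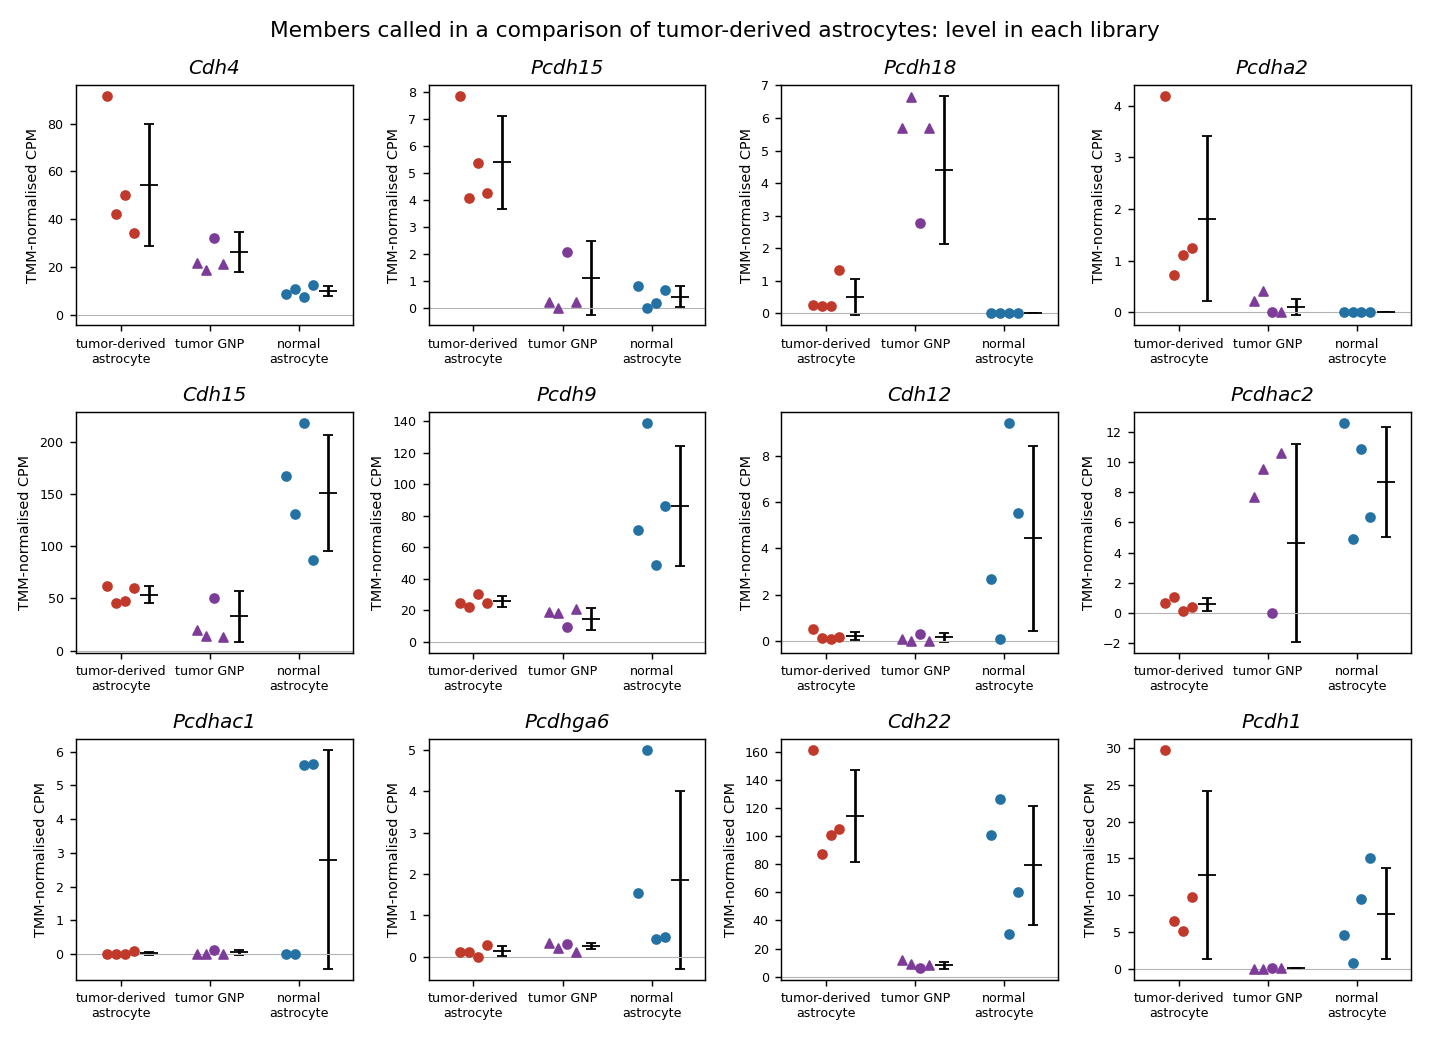
TMM-normalised CPM of the 12 members called in tumor-derived astrocytes against normal astrocytes or against GNPs, 1 panel per gene with its own vertical axis. Points are libraries (triangles mark the close GNP libraries 1, 2 and 4), and the black bar is the mean ± SD, with n = 4 for both astrocyte groups and n = 2 for GNPs; Cdh4 is higher, and Cdh15 and Pcdh9 are lower, in all 4 tumor-derived libraries than in any normal library.

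Of the delta protocadherins, which act in neural circuit formation, 8 of 9 were tested. Pcdh9 (chromosome 14) had 24.7, 22.3, 30.6 and 24.6 CPM in tumor-derived, 18.6, 18.3, 9.52 and 20.5 in GNP and 71.2, 139, 49 and 86.1 in normal libraries. The tumor-derived libraries were tightly grouped and all below the lowest normal library. The log2 fold change was -1.75 ± 0.40 (SE, edgeR adjusted p = 0.00718), past the threshold in all 20 alternatives, where the adjusted p was at most 0.0257. As for Cdh15, the part of the lower Purkinje cell and mature granule neuron markers (sums above) in the Pcdh9 result was not tested. Pcdh17 had 15, 8.04, 6.14 and 11.8 CPM in tumor-derived, 2.08, 2.0, 6.73 and 0.548 in GNP and 15.7, 2.95, 15.8 and 27.1 in normal libraries. The 2 astrocyte groups overlapped (log2 fold change -0.59 ± 0.70 SE, edgeR adjusted p = 0.551).

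Pcdh18 (chromosome 3) was at 0 in all 4 normal libraries. It had 2, 2, 2 and 14 counts in tumor-derived libraries, or 0.254, 0.24, 0.219 and 1.33 CPM, and 52, 63, 27 and 52 counts in GNP libraries, or 5.7, 6.63, 2.79 and 5.7 CPM. Set against a floor of 3 counts in each normal library, tumor-derived astrocytes were at least 1.78-fold higher (fitted log2 fold change 5.58 ± 1.52 SE, edgeR adjusted p = 0.0214). Replicate 4 carried most of these counts. Without it the tumor-derived mean of 0.238 CPM lay under the normal floor, so that no bound remained (fitted value 4.51, edgeR adjusted p = 0.0583). Of 12 granule progenitor and tumor cell markers 9 were also higher in tumor-derived than in normal astrocytes (edgeR, sums above). Their part in the Pcdh18 result was not tested. Pcdh1 had 29.7, 6.48, 5.16 and 9.79 CPM in tumor-derived and 4.59, 0.794, 9.5 and 15 in normal libraries, which overlapped, and 0 to 0.11 in GNPs. Pcdh7 was high in 1 tumor-derived library, with 44.3, 3.0, 3.73 and 4.56 CPM in that group, against 0.219, 0.316, 8.7 and 0.219 in GNP and 2.61, 0.34, 3.9 and 4.85 in normal libraries. Its log2 fold change over normal astrocytes of 2.24 ± 1.20 (SE, edgeR adjusted p = 0.174) was 0.35 (adjusted p = 0.849) without that library.

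Pcdh10, which binds the WAVE complex, had 5.71, 1.92, 4.94 and 2.38 CPM in tumor-derived, 1.65, 0.421, 1.76 and 0.768 in GNP and 1.35, 0, 18.9 and 1.05 in normal libraries. Normal replicate 3 held nearly all of the normal signal. Pcdh19, mutated in a human epilepsy, was similarly carried by normal replicate 4 at 4.19 CPM, with 0.507, 0.84, 0 and 0.57 in tumor-derived, 0.658, 0.421, 1.04 and 0.768 in GNP and 0, 0 and 0.17 in the other normal libraries. Pcdh8 had 2 counts in tumor-derived replicate 3 and 3 in normal replicate 4, and none elsewhere. Pcdh12, an endothelial protocadherin that does not belong to the delta group, had 2.03, 3.36, 5.27 and 2.57 CPM in tumor-derived libraries, 0 in all GNP libraries and 2.25, 0, 0.0848 and 0 in normal libraries.

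For 22 members, RefSeq (GRCm38.p6) gave the 250 bases before the transcript start. The windows of 4 members called against normal astrocytes are shown, to set the promoters of genes that were higher beside those of genes that were lower, 5′ to 3′ on the gene's strand. Capitals mark CACCTG, the E-box bound by Zeb and Snail repressors, read on either strand.
Pcdh18 (higher; chr3:49757317-49757566, minus strand): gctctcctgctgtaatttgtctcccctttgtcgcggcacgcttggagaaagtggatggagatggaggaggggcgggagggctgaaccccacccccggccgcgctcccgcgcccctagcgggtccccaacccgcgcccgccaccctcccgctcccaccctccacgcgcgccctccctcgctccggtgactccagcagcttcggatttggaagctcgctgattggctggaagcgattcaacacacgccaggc
Pcdh15 (higher; chr10:73821617-73821866, plus strand): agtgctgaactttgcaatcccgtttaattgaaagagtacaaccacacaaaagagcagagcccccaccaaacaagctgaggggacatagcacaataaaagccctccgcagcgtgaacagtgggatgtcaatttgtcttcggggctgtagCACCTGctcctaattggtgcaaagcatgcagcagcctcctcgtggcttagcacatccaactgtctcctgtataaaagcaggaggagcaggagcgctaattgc
Pcdh9 (lower; chr14:93890680-93890929, minus strand): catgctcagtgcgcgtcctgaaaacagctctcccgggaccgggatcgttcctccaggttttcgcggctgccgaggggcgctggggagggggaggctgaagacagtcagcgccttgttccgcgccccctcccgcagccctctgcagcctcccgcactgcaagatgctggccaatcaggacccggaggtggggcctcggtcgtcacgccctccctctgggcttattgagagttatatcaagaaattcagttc
Cdh12 (lower; chr15:21111202-21111451, plus strand): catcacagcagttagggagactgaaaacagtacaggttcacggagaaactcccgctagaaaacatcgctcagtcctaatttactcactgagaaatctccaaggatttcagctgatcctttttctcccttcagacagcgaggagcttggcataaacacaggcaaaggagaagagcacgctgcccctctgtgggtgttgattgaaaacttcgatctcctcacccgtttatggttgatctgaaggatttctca

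The Pcdh18 and Pcdh9 windows were rich in CpG, with 23 and 18 CpG and 68.0% and 63.6% G or C, where the median of 32851 RefSeq windows was 6 CpG and 52.4%. The Pcdh15 and Cdh12 windows had 6 and 7 CpG. The window of Cdh15, called lower and not shown, had 5 CpG and 62.0% G or C. The Pcdh15 start used by RefSeq lies inside the longer gene of GENCODE M21. CACCTG was found in 2 of the 22 windows, those of Pcdh15 and Cdh7, and in 17.2% of all windows. The Gli core GACCACCCA, searched on both strands, was in 0 of the 22 and in 0.2% of all. A match is a run of letters and not a shown site.

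The clustered protocadherins lie on chromosome 18, and for most of them 3′ reads cannot tell 1 gene from another. In GENCODE M21 the last 500 transcript bases were wholly shared with another gene on the same strand for all 15 alpha genes and 20 of 21 gamma genes, against 1 of 22 beta genes with any shared base. None of the 35 members outside the clusters shared such bases with another gene on either strand. The sources used here do not say how reads in shared exons were assigned, so a count for a single alpha or gamma gene may not be that isoform's own. Summed over each cluster, alpha genes were at 1.9 to 4.82 CPM in tumor-derived, 0.311 to 10.6 in GNP and 6.47 to 50.3 in normal libraries, so that every tumor-derived library lay below every normal one. Beta genes summed to 7.23 to 19.8 in tumor-derived, 15.7 to 39.5 in GNP and 14.6 to 32.8 CPM in normal libraries. Gamma genes summed to 30.8 to 47.9, 30.5 to 53.1 and 11 to 64.9 CPM, and these ranges overlapped.

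Pcdhac2 held the most alpha counts in GNP libraries 1, 2 and 4 and in normal replicates 2, 3 and 4, but in only 1 of the 4 tumor-derived libraries. Pcdha2 had 33, 6, 10 and 13 counts in tumor-derived libraries, 2, 4, 0 and 0 in GNP and 0 in all 4 normal libraries. In CPM the tumor-derived values were 4.19, 0.72, 1.1 and 1.24, at least 6.29-fold higher than normal astrocytes set to 3 counts per library (fitted log2 fold change 7.36 ± 1.74 SE, edgeR adjusted p = 0.0121). Without replicate 1 the bound was 3.54-fold. The call held in the 16 alternatives that tested it. Pcdha2 passed the filter only through the tumor-derived libraries, where it was high, so this gives the call no support. Pcdhac2 went the other way, with 0.634, 1.08, 0.11 and 0.38 CPM in tumor-derived, 7.68, 9.58, 0 and 10.6 in GNP and 12.6, 4.88, 10.9 and 6.38 in normal libraries. Its log2 fold change over normal astrocytes was -3.96 ± 1.30 (SE, edgeR adjusted p = 0.0355), and the call was lost without any one tumor-derived replicate and without normal replicate 1 or 3 (adjusted p of 0.0526 to 0.0945). Pcdhac1 had 0, 0, 0 and 1 counts in tumor-derived, 0, 0, 1 and 0 in GNP and 0, 0, 66 and 59 in normal libraries. By these counts, summed over libraries, it was 106-fold lower in tumor-derived astrocytes, with a counting interval of 18.7 to 4225 (95%, exact). This interval leaves out the spread between libraries. Both normal replicates at 0 overlapped the tumor-derived libraries. Its fitted log2 fold change of -6.23 ± 2.12 (SE, edgeR adjusted p = 0.0409) was not called without any one tumor-derived replicate (adjusted p of 0.0901 to 0.107). Pcdha9 was almost confined to normal replicate 1, with 393 counts there, 5 in normal replicate 2, 1 in tumor-derived replicate 2 and none elsewhere.

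Beta genes were many and low. In tumor-derived libraries 12 to 15 of the 22 had a count, in GNP libraries 13 to 17 and in normal libraries 12 to 16. The 3 of highest mean were Pcdhb22, Pcdhb16 and Pcdhb17. Pcdhb22 had 0.507, 3.72, 0.878 and 3.23 CPM in tumor-derived, 2.74, 2.63, 9.42 and 3.4 in GNP and 10.3, 2.38, 2.04 and 5.52 in normal libraries. Pcdhb16 had 0.254, 1.56, 0.658 and 3.9 CPM in tumor-derived, 4.83, 5.89, 5.8 and 4.72 in GNP and 0.45, 0.794, 1.95 and 4.0 in normal libraries, so that each GNP library was above each astrocyte library. Pcdhb17 ranged from 0 to 3.24 CPM in tumor-derived, from 0.105 to 3.31 in GNP and from 0.17 to 5.81 in normal libraries.

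In the gamma cluster the row for Pcdhgc4 held most counts. The deposited table names this Ensembl gene Pcdhga8, while GENCODE M21 names it Pcdhgc4, a gamma isoform required for the survival of some interneurons. It had 32, 21.8, 22.7 and 26.1 CPM in tumor-derived, 28.6, 24.8, 21.2 and 28.4 in GNP and 19.2, 40.2, 6.53 and 25.9 in normal libraries. The groups overlapped, at a log2 fold change of 0.16 ± 0.51 (SE, edgeR adjusted p = 0.83) of tumor-derived over normal, which became -0.10 without normal replicate 3. Its last 500 transcript bases are shared with 21 other genes. Pcdhgc5 had 11.2, 8.4, 11.3 and 8.08 CPM in tumor-derived, 0.877, 0.526, 7.66 and 0.329 in GNP and 14.1, 17.0, 3.31 and 9.33 in normal libraries, where again only GNP library 3 came near the astrocytes. Pcdhga4 had 0, 1, 1 and 7 counts in tumor-derived libraries, 146, 192, 2 and 206 in GNP and 3, 0, 0 and 32 in normal libraries. Pcdhga6 had 1, 1, 0 and 3 counts in tumor-derived, 3, 2, 3 and 1 in GNP and 17, 44, 5 and 5 in normal libraries. All normal libraries were above all tumor-derived ones in Pcdhga6, at a log2 fold change of -3.67 ± 1.29 (SE, edgeR adjusted p = 0.0462). This call was lost in 8 of 15 alternatives, among them upper quartile scaling (adjusted p = 0.0567), no filter on low counts (0.0846) and each tumor-derived library left out in turn (0.0675 to 0.114). Pcdhga8 itself had 126 counts in tumor-derived replicate 4, 14, 21 and 10 in GNP libraries 1, 2 and 4, and none in the other 8.

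How evenly a member was seen within a group was counted by branch. Of members with at least 10 counts in some library of the group, all 21 outside the clusters were detected in all 4 tumor-derived libraries, 15 of 20 in all 4 GNP libraries and 15 of 22 in all 4 normal libraries. Of alpha genes these were 1 of 2, 0 of 1 and 1 of 4, of beta genes 5 of 6, 8 of 13 and 7 of 14, and of gamma genes 2 of 3, 3 of 4 and 4 of 7, in the same order of groups. These shares are descriptions, since lower genes are missed more often at a given depth.

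Against GNPs, tumor-derived astrocytes stood out by Cdh22 and Pcdh1. Of the 43 tested members 2 were called higher (edgeR, adjusted p under 0.05), where 9.88% of all genes tested were called, 6.62% higher and 3.26% lower. No member was called lower. At an unadjusted p under 0.05, 5 were higher and 4 lower, and DESeq2 called 5 higher and 0 lower. The median log2 fold change of the 43 was 0.09, beside 0.06 over all genes. With the GNPs at n = 2, the calls depended on how the close trio was treated, since with all 12 libraries kept separate 6 members were higher and 3 lower.

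Cdh22 averaged 114 ± 32.6 CPM in tumor-derived astrocytes (SD, n = 4) and 8.03 ± 2.43 in GNPs (SD, n = 2), a log2 fold change of 3.74 ± 0.63 (SE, edgeR adjusted p = 0.00488). Without GNP library 3 the value was 3.41 (adjusted p = 0.061), and without the trio it was 4.17 (adjusted p = 0.0578). Either way 1 GNP sample was left, assumed to vary like the other groups, so the loss of a call here and below came with n = 1, and for Cdh22 the fold stayed of the same size. Pcdh1, a protocadherin also known from airway epithelium, had 234, 54, 47 and 103 counts in tumor-derived libraries and 0, 0, 1 and 1 in GNP libraries. By counts summed over all libraries, each of the trio included, it was 228-fold higher, with a counting interval of 62.9 to 1892 (95%, exact). This interval leaves out the spread between libraries. The means were 12.8 ± 11.4 CPM in tumor-derived astrocytes (SD, n = 4) and 0.07 ± 0.0473 in GNPs (SD, n = 2). Its fitted log2 fold change was 7.43 ± 1.64 (SE, edgeR adjusted p = 0.0171). With 1 GNP sample left it was 7.98 (adjusted p = 0.0991, without GNP library 3) and 6.78 (adjusted p = 0.188, without the trio). Pcdh12, with 16, 28, 48 and 27 counts in tumor-derived libraries and 0 in all 4 GNP libraries, was at least 10.3-fold higher, but its adjusted p was 0.0831 (edgeR) and ranged from 0.00585 to 0.35 over 19 alternatives. Endothelial markers were likewise almost absent from GNPs (the sums above), and their part in the Pcdh12 values was not tested.

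Other members named above did not pass the test against GNPs. Cdh4 was at 54.5 ± 25.6 CPM in tumor-derived astrocytes (SD, n = 4) and 26.3 ± 8.29 in GNPs (SD, n = 2), at a log2 fold change of 1.0 ± 0.52 (SE, edgeR adjusted p = 0.236), and it passed only with all 12 libraries kept separate (adjusted p = 0.0207). Cdh15 gave 0.68 ± 0.48 (SE, edgeR adjusted p = 0.384), and 1.65 without GNP library 3. Pcdh9 gave 0.75 ± 0.50 (SE, edgeR adjusted p = 0.354). Pcdh18 was lower in all 4 tumor-derived libraries than in any GNP library, yet its log2 fold change of -3.15 ± 1.29 (SE) was not called (edgeR adjusted p = 0.151). It passed with all libraries separate (adjusted p = 0.0195) and in a fit of these 2 groups alone (0.039). Cdh8 was higher in all 4 tumor-derived libraries than in any GNP library, at 3.36 ± 1.33 (SE, edgeR adjusted p = 0.125), and passed with all libraries separate (adjusted p = 0.0126) and with DESeq2 (0.0138). An adjusted p above the threshold does not show that levels were alike.

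Between GNPs and normal astrocytes, which share the normal libraries with the first comparison, 2 of the 43 members were higher in GNPs and 5 lower (edgeR, adjusted p under 0.05), where 24.1% of all genes tested were called, 12.5% higher and 11.6% lower. The median log2 fold change was -0.36, beside 0.05 over all genes. Cdh4 was higher at 1.47 ± 0.48 (SE, edgeR adjusted p = 0.0439), a call that was lost in 11 of 20 alternatives (adjusted p up to 0.229). Pcdh18, with 194 counts in GNPs and 0 in normal astrocytes, was at least 15.3-fold higher (9.72-fold without the trio; edgeR adjusted p = 0.00602), and its adjusted p stayed at or below 0.046 in 19 alternatives. Cdh22 was lower at -3.22 ± 0.61 (SE, edgeR adjusted p = 0.00301) and stayed called in all 20. The others that were lower had adjusted p of 0.00669 to 0.0271 and each lost the call in at least 1 alternative. They were Cdh8 at -4.93 ± 1.44, Cdh15 at -2.17 ± 0.52, Pcdh9 at -2.50 ± 0.55 and Pcdh1 at -6.66 ± 1.59 (SE each). The Cdh15 value was -3.14 without GNP library 3 and -1.59 (adjusted p = 0.101) without the trio. For Cdh8 these values were -7.49 and -3.96 (adjusted p = 0.161), and Pcdh9 gave -2.04 (adjusted p = 0.071) without GNP library 3. Cdh13 was not called, at 1.53 ± 0.99 (SE, edgeR adjusted p = 0.284), and passed at 3.45 (adjusted p = 0.00425) without normal replicate 1.

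**Figure D3:**
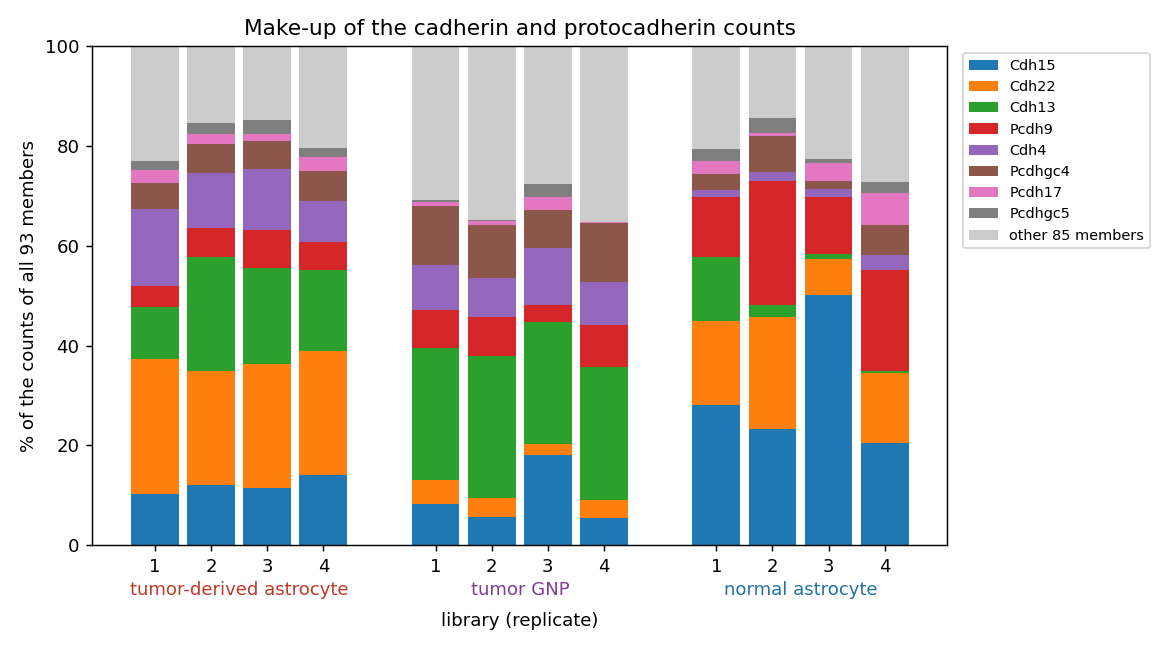
Share of all counts of the 93 members (vertical axis, percent) held by the 8 members with the most counts and by the other 85, 1 bar per library, for tumor-derived astrocytes, tumor GNPs and normal astrocytes from left to right. Cdh22 makes up 23 to 27.1% in tumor-derived libraries and 2.27 to 4.89% in GNP libraries, and Cdh15 has its highest shares, 20.5 to 50.2%, in normal libraries.

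Cdh22 took a larger share of the family's counts in tumor-derived astrocytes than in any other library. The 8 members with the most counts together held 77 to 85.2% in tumor-derived, against 64.8 to 72.4% in GNP and 72.7 to 85.6% in normal libraries. Shares are of reads after amplification of 3′ ends and not of molecules. Cdh22 held 23 to 27.1% in tumor-derived libraries, 2.27 to 4.89% in GNP and 7.06 to 22.5% in normal libraries, with no overlap between tumor-derived and other libraries. Cdh13 held 10.4 to 22.7%, 24.4 to 28.5% and 0.38 to 12.9% in the same order. For Cdh15 the shares were 10.3 to 14.1%, 5.5 to 18% and 20.5 to 50.2%, and for Cdh4 they were 8.02 to 15.4%, 7.98 to 11.6% and 1.43 to 2.91%.

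Partners and regulators of cadherins went both ways between tumor-derived and normal astrocytes. The shares to read them against are those of all genes tested, 32.3% called, 17.9% higher and 14.4% lower. Of 11 tested catenins and cadherin anchors 0 were higher and 2 lower (edgeR, 0 higher and 3 lower at an unadjusted p under 0.05, and 1 higher and 2 lower with DESeq2), with a median log2 fold change of -0.65 beside 0.11 over all genes. This was 18.2% of the list called. Those lower were Jup (plakoglobin), at 10.1 ± 5.33 CPM in tumor-derived and 77.9 ± 29.5 in normal astrocytes (SD, n = 4 each; edgeR adjusted p = 0.00163), and the plakophilin Pkp4, at 71.1 ± 9.14 and 162 ± 28.9 CPM (SD, n = 4 each; edgeR adjusted p = 0.00601). Ctnnb1 (beta-catenin) was at 111 ± 26.2 and 154 ± 46.5 CPM and not called (SD, n = 4 each; edgeR adjusted p = 0.223). Of 3 tested transcription factors that repress cadherin genes 2 were higher. Zeb1 was at 117 ± 40.7 CPM in tumor-derived and 32 ± 16 in normal astrocytes and Zeb2 at 7.43 ± 2.94 and 0.157 ± 0.114 CPM (SD, n = 4 each; edgeR adjusted p of 0.0058 and 0.00342), while Snai1, Snai2 and Twist1 had no counts in any group.

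Effectors of protocadherins, listed as the WAVE complex, FAK kinases and Marcks, gave 1 higher and 4 lower of 10, with a median of -1.20. The 1 that was higher was Marcks, and no WAVE subunit or FAK kinase was called higher. The WAVE subunits Cyfip2 (18.6 ± 1.86 CPM in tumor-derived and 174 ± 91.5 in normal astrocytes) and Nckap1 (45.5 ± 15.6 and 167 ± 64.6 CPM) were lower, and Marcks, an actin regulator at the membrane, was higher (109 ± 24.7 and 37.5 ± 8.39 CPM; SD, n = 4 each; edgeR adjusted p of 0.000254, 0.00276 and 0.00229). Of 14 chromatin factors tied to promoter choice in the protocadherin clusters 2 were higher and 2 lower, or 28.6% called beside 32.3% of all genes, with a median of -0.08. The DNA methyltransferases Dnmt1 (83.0 ± 8.15 and 24.3 ± 13.2 CPM) and Dnmt3b (8.86 ± 1.24 and 0.949 ± 0.683 CPM) were higher, and the cohesin subunits Stag1 (4.81 ± 1.31 and 20.8 ± 7.56 CPM) and Stag2 (6.99 ± 1.68 and 22.0 ± 13.1 CPM) lower in tumor-derived than in normal astrocytes (SD, n = 4 each). Of 14 other receptors of the cadherin superfamily 5 were higher and 4 lower (median -0.20). The planar polarity receptor Celsr2 was at 267 ± 108 CPM in tumor-derived and 36.4 ± 23.6 in normal astrocytes (SD, n = 4 each), and the synaptic calsyntenin Clstn3 at 6.18 ± 3.54 and 76.6 ± 30.6 CPM (edgeR adjusted p of 0.0012 and 0.00091). Dchs1, a receptor for Fat cadherins, was at 79.9 ± 5.77 CPM in tumor-derived and 8.9 ± 10.3 in normal astrocytes (SD, n = 4 each; edgeR adjusted p = 0.00365). Of 14 nectins and other adhesion molecules 2 were higher and 5 lower (median -0.37). Nectin3 was higher (24.1 ± 13.8 and 2.49 ± 1.55 CPM) and the neural adhesion molecules Chl1 (35.4 ± 17.3 and 168 ± 59.2 CPM) and Cadm2 (6.79 ± 2.84 and 38.7 ± 11.3 CPM) lower in tumor-derived than in normal astrocytes (SD, n = 4 each; edgeR adjusted p of 0.00348, 0.00262 and 0.00383).

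Between tumor-derived astrocytes and GNPs, where 6.62% of all genes tested were higher and 3.26% lower, catenins gave 0 higher and 1 lower of 11 (edgeR), superfamily receptors 2 and 1 of 14, chromatin factors 0 and 2 of 14, effectors 0 and 2 of 10 and nectins and other adhesion molecules 4 and 0 of 14. Behind these zeros, 2 catenins, 1 chromatin factor and 0 effectors were higher and 0 adhesion molecules lower at an unadjusted p under 0.05, and DESeq2 gave the same numbers. The 1 catenin that was lower was Ctnna1 (alpha-catenin), at 27.7 ± 12 CPM in tumor-derived astrocytes (SD, n = 4) and 105 ± 1.18 in GNPs (SD, n = 2; edgeR adjusted p = 0.0311). For the 3 tested repressors no call was made (edgeR), with none at an unadjusted p under 0.05 and none by DESeq2.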

How the data were processed

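The authors deposited raw read counts by gene for all libraries, as 47284 lines, of which 767 repeats with identical counts were removed. Per the submitters' processing notes, reads were checked with FastQC and aligned with STAR to mm10. The sources used here name no counting program, annotation or strand setting. Per the labels' protocols, cDNA from 3′ ends was amplified again before Nextera XT tagging, so counts do not scale with gene length and amplification adds spread between libraries. Mitochondrial genes had 0 counts, and no column of other samples was present.

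Differences were tested with edgeR 4.0.16 (R 4.3.3, quasi-likelihood F test, robust, TMM) on the 16374 genes kept by filterByExpr (a minimum count of 10 and a total of 15). The fit held all 3 groups over 10 samples, with GNP libraries 1, 2 and 4 summed (7 residual degrees of freedom, common biological coefficient of variation 0.783). P-values were adjusted by Benjamini-Hochberg over all genes tested and called under 0.05. The script was tested on simulated data. SE is the log2 fold change divided by the root of F. Levels are TMM-normalised CPM. Against a group at 0, a bound sets each of its libraries to 3 counts. Ratios with 1 to 3 counts use counts summed over all libraries of a group, with each library of the GNP trio included. Their exact 95% counting intervals leave out the spread between libraries. Alternatives were other scalings, filters, samples and DESeq2 1.42.0. Tail sharing and gene names were taken from GENCODE M21, and all 161 list genes were found. Members, lists and the rule for named genes (all called members, a set of well-known ones, the 3 of highest mean in each cluster and the called list genes of lowest adjusted p) were chosen with earlier results of these data known. Cdh7, Cdh23, Cdh24, Pcdh12, Pcdhga8, Ctnna1, Ctnnb1, Stag2 and members listed for a single library or GNP split were named after their values were seen. The list of proteases that cut cadherins is not reported here.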

Additional observations from a re-analysis of the deposited data

Results flagged for a closer look

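Of the 34 named members, 48 groups of 4 astrocyte libraries had enough signal to be examined, and 9 of them, or 18.8%, held a single library that stood far from the other 3 (Dixon's test at the 95% level). Chance flags about 1 in 20 groups of normally distributed values. Here 16.5% of such groups were flagged over all genes and 13.9% over genes tested, and the named members include some that were not tested. The tumor-derived libraries gave 3 of the 9. Pcdh7 was at 44.3 CPM in tumor-derived replicate 1, against 3.0 to 4.56 in the others. Pcdha2 was at 4.19 CPM in the same library, against 0.72 to 1.24. Pcdh18 was at 1.33 CPM in tumor-derived replicate 4, against 0.219 to 0.254. In normal replicate 1, Cdh13 was at 76.8 CPM, against 1.62 to 12.5 in the other normal libraries, and Pcdha9 at 35.4 CPM, against 0 to 0.567. In normal replicate 3, Pcdh10 was at 18.9 CPM, against 0 to 1.35, and Cdh10 at 3.73 CPM, against 0 to 0.19. In normal replicate 4, Pcdh19 was at 4.19 CPM, against 0 to 0.17, and Pcdhga4 at 3.05 CPM, against 0 to 0.27.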

How the results depend on the processing

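Each count of called members was recomputed under the alternatives, and the cause of each shift below was not tested. With all 12 libraries separate, tumor-derived over normal astrocytes gave 3 lower (6 before), tumor-derived over GNPs 6 higher and 3 lower (2 and 0), and GNPs over normal 4 higher and 8 lower (2 and 5). Leaving out the GNP trio gave 0 higher in tumor-derived over GNPs and 1 higher and 3 lower in GNPs over normal. With a filter of CPM 10, tumor-derived over normal gave 1 higher (4 before) and 3 lower, and GNPs over normal 1 higher. In fits of 2 groups alone the counts were 3 lower, 1 lower and, for GNPs over normal, 1 higher and 3 lower. DESeq2 gave 5 higher in tumor-derived over GNPs, and no filter 1 higher in GNPs over normal. Leaving out 1 library at a time gave 1 to 6 higher and 2 to 6 lower in tumor-derived over normal, 0 to 3 higher and 0 to 0 lower over GNPs, and 1 to 2 higher and 3 to 6 lower in GNPs over normal. Against normal astrocytes, 1 member was higher without tumor-derived replicate 4, 2 were lower without replicate 2, 3 or 4 and 3 without normal replicate 3; against GNPs, 0 were higher without GNP library 3. Among the fold changes recomputed, which leave out Pcdh10, Pcdh19 and other members given by levels alone, the only one that changed sign was Pcdhgc4 in tumor-derived over normal astrocytes, 0.16 in full and -0.10 to 0.56 with 1 library left out, lowest without normal replicate 3. Calls of Cdh4, Cdh15 and Pcdh9 against normal astrocytes held in all 20 alternatives. That of Pcdha2 held in the 16 that tested it. Pcdha2 passed the filter only through the tumor-derived libraries, where it was high, so this gives its call no support. Upper quartile scaling moved the median of all genes by 0.21 (log2) in tumor-derived over normal, by 0.10 over GNPs and by 0.11 in GNPs over normal, and size factors of the DESeq2 kind moved it by 0.11 in tumor-derived over GNPs; no named call changed direction. No paired analysis was possible because replicate numbers follow the order of deposit and pair nothing across groups. Counts near 3 per library limit most clustered genes.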

Other observations

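GNP library 3 differed from libraries 1, 2 and 4 over genes at large. The chi-square per degree of freedom of these pairs was 11.41 to 11.79 over genes with 10 to 49 counts. The split is therefore not particular to this family, and how many of all genes show it was not counted. Among members, 12 had at least 10 counts in 1 side of the split between GNP library 3 and libraries 1, 2 and 4 and almost none in the other. The trio held 4 of them, the type II cadherin Cdh24 (83, 96 and 82 counts, against 1 in library 3), Pcdhac2 (70, 91 and 97, against 0), Pcdhga4 (146, 192 and 206, against 2) and Pcdhga8 (14, 21 and 10, against 0). Library 3 held the other 8, with Cdh1 at 35 counts and Pcdhb14 at 35, against 0 to 1 in the trio, Pcdhb10 at 29 and Pcdhb4 at 27, against 1 to 2, and Pcdh15, Pcdhb21, Pcdhb12 and Cdh8 at 20, 18, 15 and 10, against 0 to 2. The labels give the 4 libraries different strain names and numbers, and the number of library 3 alone carries a further suffix, b.

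Some members had at least 10 counts in a single library of a group and none in the other 3. The share of all genes with this pattern was not counted, so the members are only listed. In normal astrocytes these were Pcdha8 (20 counts) and Pcdhb13 (47) in replicate 1 and Pcdhgb1 (17) and Pcdhgb2 (24) in replicate 4. In tumor-derived astrocytes it was Pcdhga8 (126 in replicate 4), and in GNPs Cdh1 and Pcdhb12 in library 3.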
